A study of Mus musculus with 2 samples.

Results

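Short mRNA fragments of 44 extracellular matrix genes were counted in small RNA libraries of mouse mesenchymal stem cells. The 44 genes were a named set of 22015 protein-coding genes in the annotation. A read belonged to the set when it was at least 18 nt long, lay in sense and without mismatch in a transcript of a listed gene, and lay in no small RNA gene. The choice of genes used no measured value as a rule, but the set was drawn up with results of these libraries already known. Mesenchymal stem cells are fibroblast-like cells of adult bone marrow, and both lines were immortalized, clonal and from C57BL/6 mice. One line was Dicer f/f, an intact allele flanked by sites for recombination, called f/f here. The other was Dicer -/-, called null. Dicer cuts hairpin precursors into microRNAs. Each genotype was 1 library of 1 line, both grown in serum close to confluence, so clone and genotype cannot be told apart. No difference had a replicate check, and no p-value is given. RNA of 15 to 50 nt had been cut from a gel, and the longest read was 36 nt.

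The matrix is the network of proteins that cells such as fibroblasts secrete around themselves. Fibrillar collagens are made of 3 chains wound into a triple helix, with glycine at a fixed place in each short repeat. Folding enzymes hydroxylate and guard the chains in the endoplasmic reticulum, lysyl oxidases cross-link the finished fibrils, and proteoglycans, glycoproteins and adhesive proteins such as fibronectin bind to them. Matrix mRNAs are long and abundant in mesenchymal cells, and a small RNA library records them only as short pieces. Such a piece shows that an RNA of that sequence was present. It does not give the level of the full transcript, and more transcript and more breakage of the same transcript cannot be told apart.

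Matrix fragments were more frequent in the null library than in f/f. The f/f library held 9943989 reads and the null library 6291599, and 1193 and 6067 of these matched a matrix gene. In CPM, the count scaled to the total of the library, this was 120 in f/f and 964 in null, a ratio of 8.04 (7.55 to 8.56). All ranges in parentheses are 95% intervals of counting error alone, because each genotype had 1 library. PCR copies of a molecule were counted as separate reads, so the intervals can be too narrow. For fragments of all protein-coding genes the ratio was 5.85 (5.81 to 5.90). For snoRNA and snRNA reads, pieces of abundant stable nuclear RNAs, it was 4.30. Matrix genes gave 1.66% of mRNA fragments in f/f (1.57 to 1.76) and 2.28% in null (2.23 to 2.34), a ratio of 1.37 (1.29 to 1.46). That ratio rested on 3 genes outside the matrix. Tmem38b, Cstf2t and Mettl26 had the most f/f reads, and Tmem38b alone gave 31.8% of f/f and 6.14% of null mRNA fragments. Without these 3 genes the ratio of the matrix share was 0.951 (0.893 to 1.01).

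Most f/f reads of the set did not identify a matrix gene. Of the f/f matrix reads, 796 (66.7%, 63.97 to 69.4) also matched other genes, and of the null reads 2028 (33.4%, 32.2 to 34.6). Among other mRNA fragments the shared part was 12.1% in f/f and 11.7% in null. Shared reads were 4.03-fold more frequent in null (3.71 to 4.38). Reads that matched 1 gene only numbered 397 and 4039, or 39.9 and 642 CPM, a ratio of 16.1 (14.5 to 17.9). Counted this way, matrix genes gave 0.635% of mRNA fragments in f/f (0.575 to 0.701) and 1.73% in null (1.68 to 1.78), a ratio of 2.72 (2.45 to 3.02). The ratio was 1.74 (1.57 to 1.93) without the 3 leading genes. Reads of 1 gene were 8.86-fold more frequent in null for 83 ribosomal protein genes (8.27 to 9.51) and 5.66-fold for 67 histone genes (5.09 to 6.29).

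Of the 44 members, 42 had a read and 33 had at least 10 reads over both libraries. Each member's ratio was set against that of all mRNA fragments. Of the 33, 20 were more than 2-fold higher in null, 60.6% beside 30.6% of all protein-coding genes. More than 2-fold lower were 4, 12.1% beside 19.1%. Genes with no f/f read count as higher here. With them held at a floor of 3 counts, 18 members were more than 2-fold higher, 54.5% beside 23.9%, and again 4 were lower. The median ratio per mRNA fragment was 2.80, or 2.27 at the floor, beside 1.15 and 1.08 over all genes. With reads of 1 gene, 31 members had at least 10 reads. Of these, 22 were more than 2-fold higher, 71.0% beside 54.5%, and 3 were lower, 9.68% beside 7.27%. At the floor 20 were higher, 64.5% beside 40.1%. Their median was 3.44, or 3.39 at the floor, beside 2.37 and 1.60. On the CPM scale 32 of the 33 were more than 2-fold higher with all reads, 97.0% beside 90.6% of all genes, and 30 of the 31 with reads of 1 gene, 96.8% beside 96.8%. None was more than 2-fold lower, beside 0.668% and 0.313% of all genes. Being higher in CPM was therefore shared with nearly every gene counted, and values per mRNA fragment are given below where a member is set against other mRNA.

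**Figure D1:**
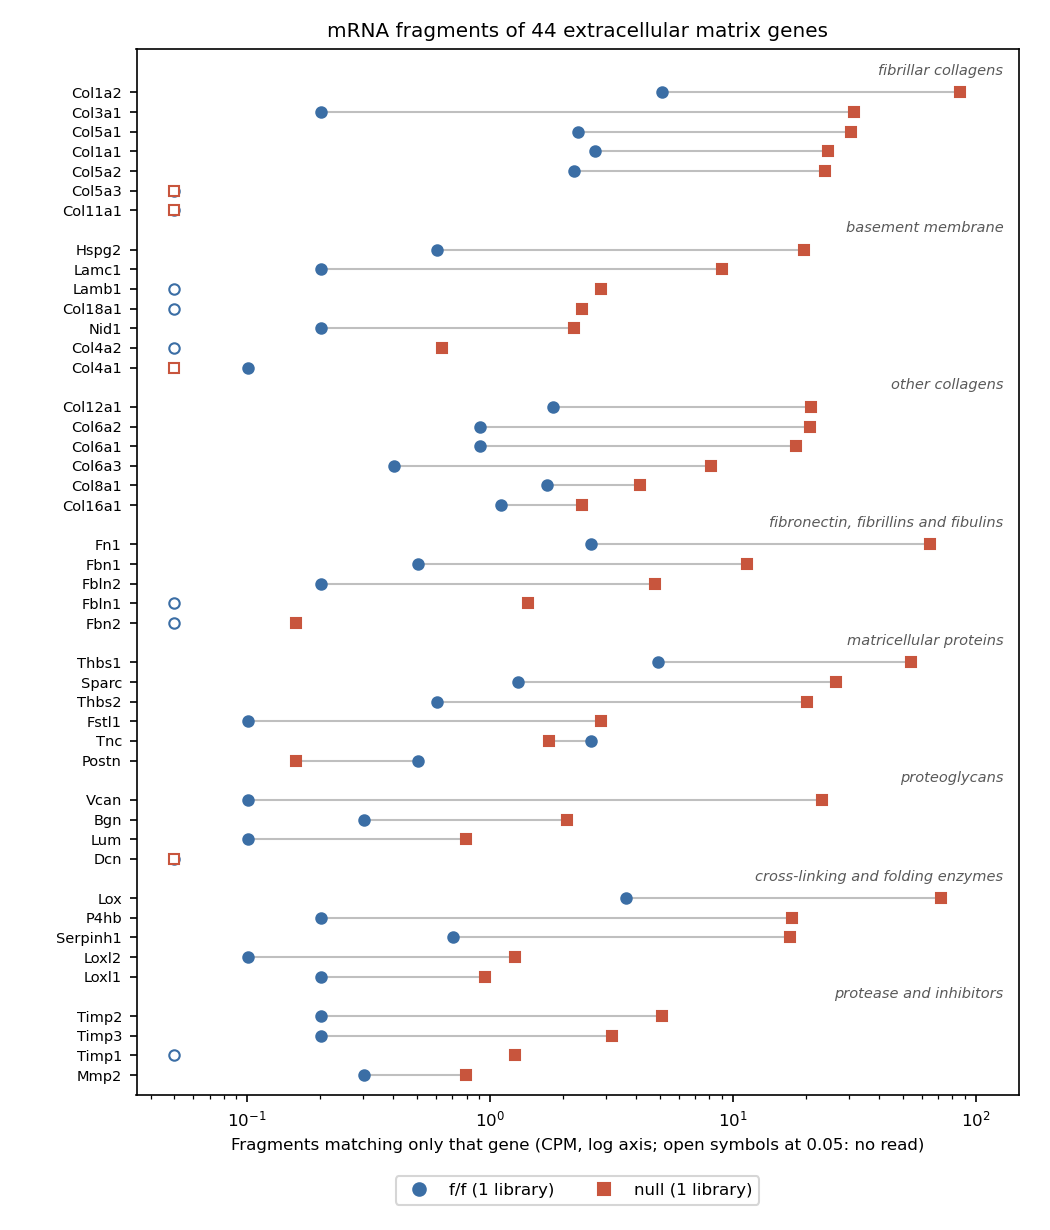
Fragments that match only the named gene, in CPM on a log axis, for the 44 matrix genes by role; circles are the f/f library and squares the null library, and open symbols mark no read (for Col5a3, Col11a1 and Dcn the null symbol covers the f/f one). Null lies to the right of f/f for nearly all genes, and Tnc, Postn and Col4a1 lie the other way.

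Shared reads came from a few members. Fstl1 encodes follistatin-like 1, a secreted glycoprotein (chr16:37776873-37836514, GRCm38). It had 424 f/f and 702 null reads, the most of any member in f/f, of which only 1 and 18 matched it alone. A pair of 18-nt sequences made up most of them and is shown because it sets much of the f/f total, with the last 3 bases in capitals:
Fstl1 sequence 1: tccccgtacgggccaCCA
Fstl1 sequence 2: tcccgggtttcggcaCCA
The first had 184 f/f and 340 null reads and matched 5 genes. The second had 197 and 287 reads and matched 9. Both end in CCA, the bases that are added to the 3′ end of mature tRNAs. The annotation used here holds almost no nuclear tRNA genes, so an origin in tRNA was not tested. Shared Fstl1 reads that end in CCA were 394 of 423 in f/f and 640 of 684 in null. Without Fstl1 the matrix ratio was 11.03 in CPM (10.2 to 11.9).

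Lum and Loxl2 were likewise nearly all shared. Lum encodes lumican, a small leucine-rich proteoglycan (chr10:97565128-97572703). It had 134 f/f and 279 null reads, with 1 and 5 of Lum alone. In all of its shared reads a single base made up at least 75% of the letters, and the commonest was a run of 24 A that matched 417 genes. Loxl2 encodes a lysyl oxidase-like cross-linking enzyme (chr14:69609068-69695834). It had 203 f/f and 930 null reads, with 1 and 8 of Loxl2 alone, and its shared reads matched a median of 144 genes. For Fn1, Sparc and Timp3 40.2%, 45.3% and 51.1% of reads were shared, mostly with 10 or more genes. Every other member with at least 100 reads had under 2% shared. Values below are for reads of 1 gene unless stated.

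**Figure D2:**
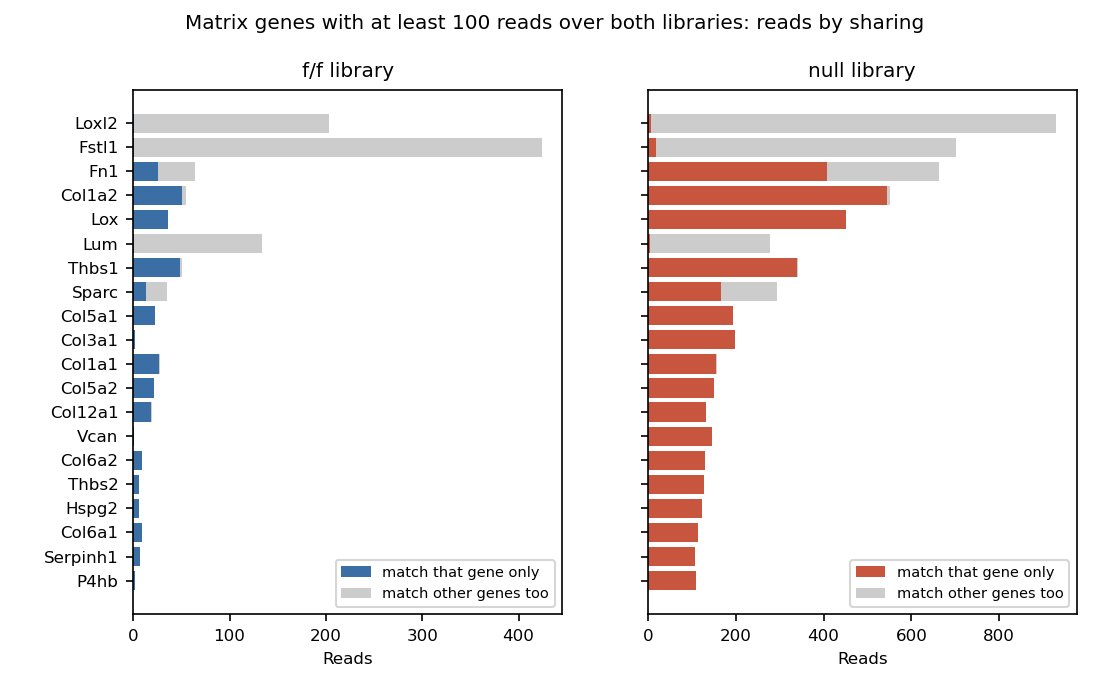
Reads of the 20 matrix genes with at least 100 reads over both libraries, f/f on the left and null on the right, split into reads that match that gene only (colour) and reads that match other genes too (grey). Fstl1, Loxl2 and Lum are grey almost throughout, with 1 f/f read each of their own.

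Fibrillar collagens, the proteins of tissue fibrils, gave 125 f/f and 1241 null reads, a ratio of 15.7 in CPM (13.05 to 19.01) and 2.66 per mRNA fragment (2.21 to 3.22). Of the 7, 5 had at least 10 reads. More than 2-fold higher per mRNA fragment were 3 of them, 60% beside 54.5% of all genes, and none was lower. Col1a1 and Col1a2 encode the chains of type I collagen. Col1a1 (chr11:94936224-94953042) gave 27 reads in f/f and 155 in null, at 2.72 and 24.6 CPM, a ratio of 9.07 (6.00 to 14.2). Col1a2 (chr6:4504814-4541544) had 51 and 544 reads, 5.13 and 86.5 CPM, a ratio of 16.9 (12.6 to 22.9). Null was the higher library for both, and the interval of Col1a2 overlaps that of Col1a1.

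Col3a1, the single chain of type III collagen (chr1:45311538-45349706), was counted 2 times in f/f and 199 times in null, at 0.201 and 31.6 CPM. Its ratio of 157 (42.97 to 1308) was 26.6 per mRNA fragment (7.27 to 221), among the 3 highest of members with at least 50 reads. The low f/f count set this value, since Col3a1 in null was close to Col5a1. Type V collagen regulates fibril diameter. Its chain Col5a1 had 23 and 193 reads (ratio 13.3, 8.58 to 21.4), and Col5a2 had 22 and 150 (ratio 10.8, 6.86 to 17.7). Col5a3, a further type V chain, had no read in either library. Col11a1, a chain of cartilage fibrils, had 2 null reads, both shared with other genes. Where a library had no read, a level of up to 0.302 CPM (f/f) or 0.477 CPM (null) could have been missed.

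The commonest coding fragments of 5 fibrillar collagen mRNAs held 2 to 5 whole glycine codons each. In the 5 sequences below, read from the deposited files, whole glycine codons in the reading frame are in capitals. The later fragments of Col6a1, Col12a1, Vcan, P4hb and Serpinh1 are marked in the same way. Those of Fn1, Thbs1 and Sparc are not marked for glycine codons. Genes outside the 8 members with most reads were added here after their values were seen.
Col1a1: gaagatgtaGGAgtcgagGGAccc
Col1a2: tcaGGTactactGGAgaagtt
Col3a1: acggGGTGGCcctGGAGGAcctGGCc
Col5a1: GGTgcagtcGGAgaaaag
Col5a2: tGGAagtcaagtaGGActcatgcc
The Col1a1 fragment of 24 nt runs from exon 3 into exon 4 of 51 (chr11:94938241-94938383), so it came from spliced RNA. It had 6 null reads and no f/f read. The Col1a2 fragment lies in exon 29 of 52 (chr6:4524891-4524911, 9 null reads) and the Col3a1 fragment in exon 25 of 51 (chr1:45334620-45334645, 8 null reads). Col5a1 has its fragment in exon 48 of 66 (chr2:28011332-28011349), with 5 f/f and 7 null reads, and Col5a2 in exon 8 of 54 on the minus strand (chr1:45426998-45427021, 9 null reads). Glycine codons are 26.8% of the Col1a1 reading frame and 28.3% of that of Col3a1. The commonest start position held 7 of 154 null reads on the Col1a1 transcript and 8 of 198 on that of Col3a1, but 9 of 46 on that of Col6a3 and 6 of 15 on that of Col8a1.

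The commonest Col1a2 sequence lay outside the coding frame. It is shown because its 23-nt form alone had 8 f/f and 194 null reads:
Col1a2, intron 6 region: tcaggatgatgacctagctgaca
This sequence lies at chr6:4513191-4513213, plus strand, between exons 6 and 7 of the main transcript, in a GENCODE transcript classed as retained intron. Reads that began within 3 nt of its start numbered 11 in f/f and 275 in null, a ratio of 39.5 (21.7 to 80.1), and were 50.6% of null Col1a2 reads. They were narrow in length, with 199 null reads of 23 nt and 60 of 22 nt. All other Col1a2 reads were 40 and 269, a ratio of 10.6 (7.604 to 15.2), within the interval of Col1a1. Without this spot the 1-gene ratio of the whole set was 15.4 (13.9 to 17.2).

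The other collagens gave 68 f/f and 469 null reads, a ratio of 10.9 (8.44 to 14.3). Of the 6, 3 were more than 2-fold higher per mRNA fragment, 50% beside 54.5% of all genes, and 2 lower, 33.3% beside 7.27%. Type VI collagen forms beaded microfilaments around cells. Its chains Col6a1 and Col6a2 are neighbours on chromosome 10 and had 9 f/f reads each, with 114 and 131 null reads, ratios of 20.02 (10.2 to 44.9) and 23.01 (11.7 to 51.4). Col6a3, another chain of this collagen, had 4 and 51 reads (ratio 20.1, 7.41 to 76.8). The 3 chains thus had nearly the same ratio. Col12a1, a collagen that coats fibrils, had 18 and 132 reads (ratio 11.6, 7.06 to 20.2). Col8a1, a short-chain collagen, and Col16a1, which also binds fibrils, stood lower. Col8a1 had 17 and 26 reads, 0.409 of the mRNA ratio (0.214 to 0.803), and Col16a1 11 and 15 reads, 0.365 (0.157 to 0.878). A null Col6a1 fragment from its last exon, 35, which had 8 null reads, shows 1 whole glycine codon. The Col12a1 fragment, from exon 46 of 66 with 9 null reads, shows none.
Col6a1: accaggccctgctacgtGGCgta
Col12a1: cccgaaggtgctggttgtggtcacagat

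Basement membrane genes were scarce in f/f. This thin sheet under epithelia and around vessels is built of type IV collagen, laminin, nidogen and perlecan. The 7 genes gave 11 f/f and 232 null reads, a ratio of 33.3 (18.3 to 67.7). At the floor, Hspg2 and Lamc1 of the 5 with at least 10 reads were more than 2-fold higher per mRNA fragment. This was 40% beside 40.1% of all genes, with a median at the floor of 1.87 beside 1.60. Hspg2, the perlecan gene, supplied more than any other, 6 and 124 reads (ratio 32.7, 14.6 to 90.7). Lamc1, a laminin gamma chain, had 2 and 57 reads (ratio 45.04, 11.9 to 381). Lamb1, a laminin beta chain, had no f/f and 18 null reads, at least 9.48-fold higher, and Col18a1, the source of endostatin, 0 and 15 reads, at least 7.90-fold higher. Nid1, nidogen, had 2 and 14 reads (ratio 11.06, 2.54 to 100). The type IV collagen chains that define the basement membrane were nearly absent: Col4a1 had 1 f/f and no null read, and Col4a2 none and 4.

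Fibronectin led its group. Fn1 encodes the adhesive glycoprotein that integrins bind (chr1:71585520-71653200). It gave 26 reads in f/f and 409 in null, at 2.61 and 65.0 CPM, a ratio of 24.9 (16.7 to 38.5), and 4.21 per mRNA fragment (2.83 to 6.52). Fbn1, the microfibril protein fibrillin 1, had 5 and 72 reads (ratio 22.8, 9.31 to 72.2), close to Fn1. The fibulin gene Fbln2 had 2 and 30 reads (ratio 23.7, 6.02 to 205). Fbln1 had no f/f and 9 null reads, at least 4.74-fold higher. Fbn2 had 1 null read of its own, and both libraries were under the floor. The group of 5 had 33 and 521 reads, a ratio of 24.95 (17.5 to 36.6). Its 3 genes with at least 10 reads were all more than 2-fold higher per mRNA fragment, beside 54.5% of all genes. The commonest coding fragments of Fn1 differed between the libraries. The f/f one had 6 f/f and no null reads and lies in exon 2 of 46 (chr1:71651569-71651586, minus strand). The null one, with 11 null and no f/f reads, lies in exon 31 (chr1:71605990-71606014).
Fn1 in f/f: gcaacgccctggtttgta
Fn1 in null: gtgacagatgtccaggacaacagca

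Matricellular proteins, which signal to cells rather than carry load, were the most mixed group. The 6 genes gave 100 f/f and 663 null reads of their own, a ratio of 10.5 (8.48 to 13.1). With shared reads they gave 547 and 1477, and the ratio was 4.27 (3.87 to 4.72). Thbs1, thrombospondin 1 (chr2:118111876-118127133), had 49 and 339 reads, 4.93 and 53.9 CPM, a ratio of 10.9 (8.09 to 15.07). Per mRNA fragment it was 1.85 (1.37 to 2.55), under 2-fold. Thbs2, its paralog, had 6 and 127 reads (ratio 33.4, 14.9 to 92.9), with an interval whose lower end lies near the upper end of that of Thbs1. Sparc, osteonectin (chr11:55394500-55423183), had 13 and 167 reads (ratio 20.3, 11.5 to 38.9). Fstl1 reads of its own were 1 and 18 (ratio 28.4, 4.49 to 1185).

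Tnc and Postn went the other way. Tnc encodes tenascin C, a protein of injured and remodelling tissue (chr4:63959785-64047015). It gave 26 reads in f/f and 11 in null, at 2.61 and 1.75 CPM, or 0.669 of its f/f level (0.298 to 1.40), an interval that includes no difference. Against other mRNA it stood at 0.113 (0.0505 to 0.237), the lowest of the 31 members with at least 10 reads of their own. Postn, periostin, had 5 and 1 reads, a ratio of 0.316 (0.00668 to 2.82). The commonest coding fragments of the other 2 leading genes were again different in the 2 libraries. For Thbs1 they lie in exon 14 (2 f/f reads) and exon 9 (7 null reads) of 22, and for Sparc in exon 2 (3 f/f reads) and exon 8 (10 null reads) of 11.
Thbs1 in f/f: ggaagactatgacaaggacgggatt
Thbs1 in null: atgaacgggaagccctgtgaaggtgaagcc
Sparc in f/f: tcagaccgccagaactcttctgcc
Sparc in null: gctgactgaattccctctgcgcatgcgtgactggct

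Of the 165 null reads of proteoglycans, 147 belonged to versican, as did 1 of 5 in f/f. Vcan (chr13:89655312-89742509), a large hyaluronan-binding proteoglycan, gave 1 read in f/f and 147 in null, at 0.101 and 23.4 CPM. Its ratio of 232 (41.06 to 9238), or 39.3 per mRNA fragment (6.95 to 1563), was the highest of all members with at least 50 reads. The f/f side is a single read, so only the lower bound is informative. Bgn, biglycan, had 3 and 13 reads (ratio 6.85, 1.88 to 37.5), and Lum 1 and 5 (ratio 7.90, 0.884 to 374). Dcn, decorin, a small proteoglycan that binds collagen fibrils, had no read in either library. The commonest versican fragment lies in exon 3 of 15 (chr13:89725453-89725474, minus strand) and had 9 null reads.
Vcan: agaacGGAaatatcaagattgg

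Enzymes that cross-link and fold collagen gave 48 f/f and 683 null reads, a ratio of 22.5 (16.8 to 30.8). All 3 with at least 10 reads of their own were more than 2-fold higher per mRNA fragment, beside 54.5% of all genes. Lox, the lysyl oxidase that starts cross-linking, had 36 and 451 reads, 3.62 and 71.7 CPM, a ratio of 19.8 (14.1 to 28.6). P4hb, protein disulfide isomerase and subunit of prolyl 4-hydroxylase, had 2 and 110 reads (ratio 86.9, 23.5 to 727). Per mRNA fragment P4hb stood at 14.7 (3.98 to 123), the other of the 3 highest. Serpinh1, the collagen chaperone HSP47, had 7 and 108 reads (ratio 24.4, 11.4 to 62.1). Loxl2 had 1 and 8 reads of its own (ratio 12.6, 1.69 to 561) and Loxl1 2 and 6 (ratio 4.74, 0.848 to 48.04). With shared reads Loxl2 stood at 1.24 of the mRNA ratio. Together with Fstl1 at 0.447 and Lum at 0.562 it was among the 3 lowest of members with at least 50 reads, and all 3 rested on shared reads.

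Coding fragments of P4hb (exon 2 of 11, 10 null reads) and Serpinh1 (exon 3 of 5, 6 null reads) are given because their proteins act on the collagen chains shown before.
P4hb: ggatgccacagaagagtctgacctggct
Serpinh1: acaagatggtggacaaccgtGGCtt

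Matrix proteases and their inhibitors had few reads, 7 in f/f and 65 in null, a ratio of 14.7 (6.73 to 37.9). Timp2 and Timp3, tissue inhibitors of metalloproteinases, had 2 and 32 reads (ratio 25.3, 6.45 to 218) and 2 and 20 reads (ratio 15.8, 3.84 to 140). Timp1 had no f/f and 8 null reads, at least 4.21-fold higher. Mmp2, gelatinase A, had 3 and 5 reads (ratio 2.63, 0.513 to 17.0). All 5 null reads were 1 sequence of a transcript classed as retained intron. The main Mmp2 transcript had 3 f/f and 0 null reads. Neither the level of Mmp2 nor that of Col16a1 differed between libraries beyond counting error in CPM.

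**Figure D3:**
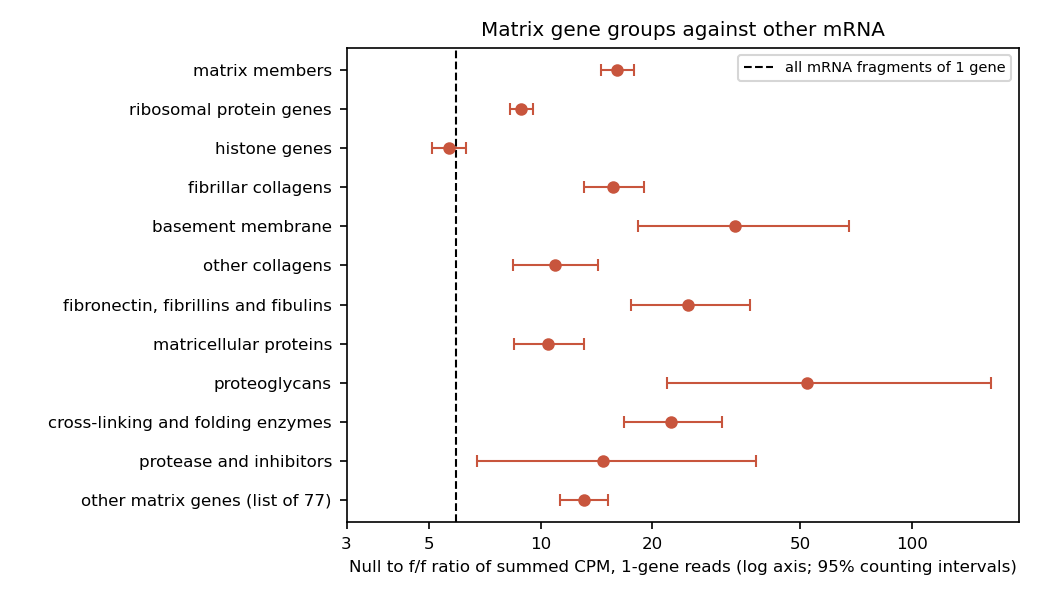
Null to f/f ratio of summed CPM, reads of 1 gene, on a log axis, for the matrix set, its 8 role groups, the list of 77 other matrix genes, ribosomal protein genes and histone genes; points carry 95% counting intervals and the dashed line is the ratio of all mRNA fragments of 1 gene, 5.91. All 8 groups lie above the line, from 10.5 for matricellular proteins to 52.2 for proteoglycans, while histone genes lie across it. Groups and line are sums over reads, and Tmem38b alone gave 22842 f/f and 16334 null reads to the line. The median ratio over all genes with at least 10 reads was 14.0, or 9.48 at the floor of 3 counts. The sums of matricellular proteins (10.5) and other collagens (10.9) lie between these values.

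Levels were compared between genes only per length of the transcript, with reads of 1 gene that lie on the main transcript (RPKM, CPM per kilobase of transcript). In null, Lox was highest at 15.1 (13.8 to 16.6). Thbs1 followed at 9.16 (8.21 to 10.2), Sparc at 8.03, Fn1 at 7.67, Serpinh1 at 7.34, Col1a2 at 6.92 and P4hb at 6.11. Only the step from Lox to Thbs1 exceeded the intervals, and neighbours from Thbs1 down to P4hb had intervals that overlap. Col1a1 stood at 4.13 (3.50 to 4.83), below Col1a2 at 6.92 (6.06 to 7.87). In f/f the order was Thbs1 at 0.843, Lox at 0.764, Col1a2 at 0.621, Sparc at 0.515 and Col1a1 at 0.390, and neighbours in this order had intervals that overlap. Of the Sparc reads, 98 of 167 in null and 6 of 13 in f/f lay off the main transcript, so its values here are low counts.

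Null matrix fragments lay mostly in coding sequence. In null, 64.8% of matrix reads on the main transcripts lay in coding sequence (63.2 to 66.3), 27.2% in the 3′ UTR and 8.07% in the 5′ UTR. Coding sequence is 71.6% of the length of these transcripts, a little above the share of the reads. Of the 967 null reads in the 3′ UTR, 382 were of Lox and 183 of Thbs1, and the shares without these genes were not taken. For other genes in null the coding share was 35.96%, with 51.0% of length, and 20.1% of reads lay in the 5′ UTR (19.9 to 20.2). In f/f the matrix shares were 51.6% coding (46.2 to 57.0), 26.1% in the 3′ UTR and 22.3% in the 5′ UTR (18.03 to 27.09). Other genes in f/f had 17.8% coding, 62.9% in the 3′ UTR and 19.2% in the 5′ UTR (18.9 to 19.6). The 5′ share of the matrix was thus close to that of other genes in f/f and lower than it in null. Other genes here include Tmem38b, with 22842 f/f reads of 1 gene, Cstf2t and Mettl26. Their part in the f/f shares was not tested. Col1a1 and Col5a2 gave 16 and 11 of these 77 f/f reads. For Col1a1 they were 16 of 23 f/f reads on the transcript, against 10 of 154 null reads.

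Members differed in where their fragments lay. Col3a1 had 94.9% of its null reads in coding sequence (90.9 to 97.6), where 79.0% of its length lies, and 2 reads in the 3′ UTR. Vcan had 127 of 144 null reads in coding sequence and none in its 3′ UTR, which is 15.4% of its length. Lox (chr18:52516067-52529867) was the opposite: 84.7% of its null reads lay in the 3′ UTR (81.04 to 87.9), which is 66.7% of its length, and 86.1% of its f/f reads. Thbs1 had 54.3% of null and 67.3% of f/f reads in the 3′ UTR, with 35.98% of its length there.

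**Figure D4:**
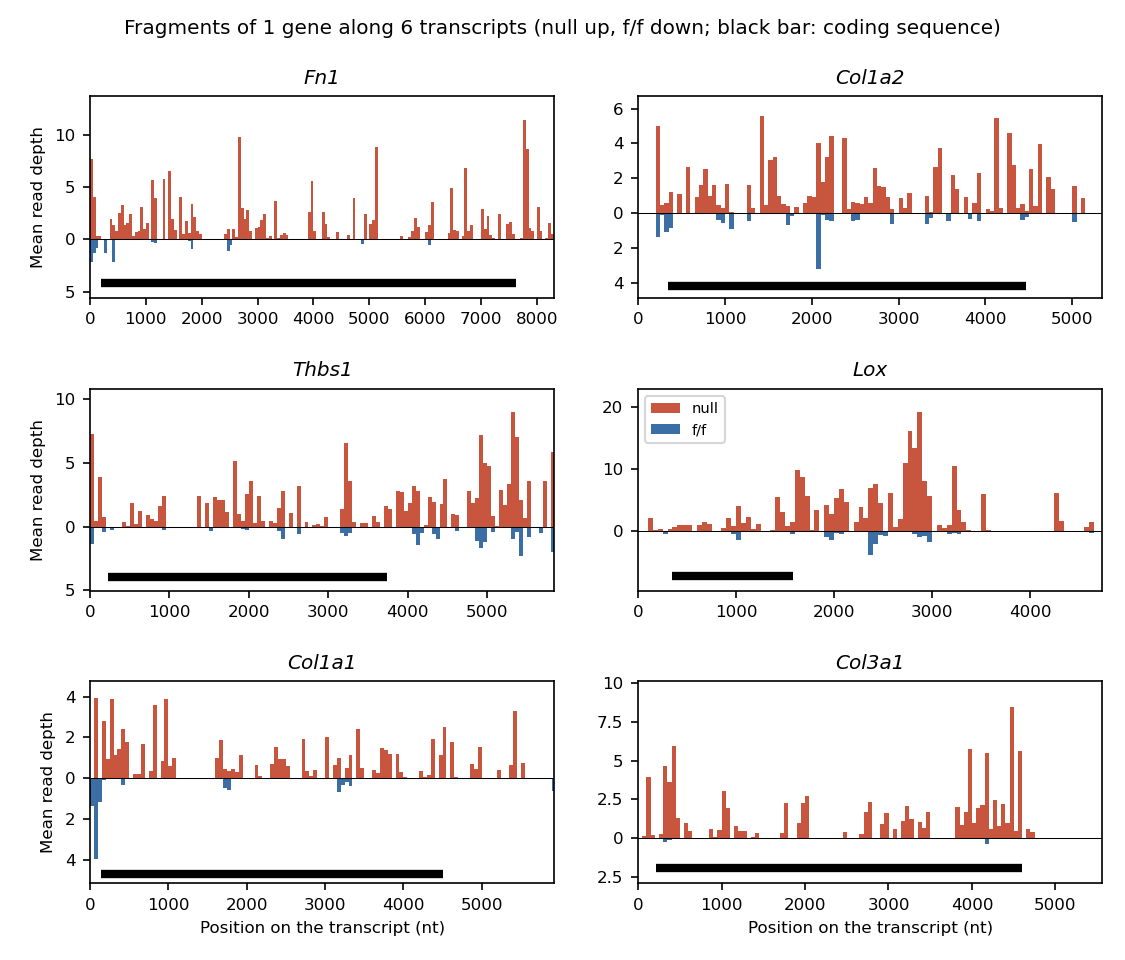
Mean read depth in bins of 50 nt along the main transcript of 6 matrix genes, reads of 1 gene, null drawn upward and f/f downward, with the coding sequence as a black bar; depth is in reads and each gene has its own scale. Null depth is heaviest after the coding sequence in Lox; the intronic Col1a2 sequence is on no bin shown.

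Start positions were compared between the libraries. On the main transcripts, f/f reads had 226 different start positions and null reads 1334, of which 23 were shared, 10.2% of those of f/f and 1.72% of those of null. For other protein-coding genes 9.56% of f/f starts and 2.27% of null starts were shared, from 13056 and 54907 starts. Null reads touched 41.4% of the bases of the Lox transcript, 34.3% of Thbs1, 31.7% of Fn1 and 31.5% of Col1a2. Of 1332 null starts with a base before them, 30.9% followed a T in the transcript (28.5 to 33.5), where T is 23.01% of the bases, and 17.6% began with C, which is 26.3%. Other mRNA fragments in null followed a T in 28.01%, with 24.97% of bases, and began with C in 18.3%, with 24.2% of bases. In f/f, 37.2% of matrix starts were G (30.9 to 43.8), as were 36.04% in other mRNA. Of 156 coding starts of null reads of 28 to 32 nt, 37.8% were at the first base of a codon (30.2 to 45.9), 23.7% at the second (17.3 to 31.2) and 38.5% at the third (30.8 to 46.6). For other genes the shares were 34.4%, 33.4% and 32.3%, and the interval of the second base does not reach the share of other genes. Further length windows were counted in null. The second base held 30.9% at 18 to 23 nt (26.6 to 35.5), beside 34.1% for other genes. It held 28.1% at 24 to 27 nt (22.3 to 34.4), beside 35.5%, and 30.5% at 36 nt (21.9 to 40.2), beside 32.7%. In f/f it held 6 of 18 starts at 28 to 32 nt.

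Matrix fragments of 1 gene were longer than other mRNA fragments in f/f. With all reads, 31.0% of matrix fragments were at least 24 nt in f/f (28.4 to 33.7) and 48.1% in null (46.9 to 49.4). With reads of 1 gene the shares were 46.1% (41.1 to 51.1) and 53.7% (52.1 to 55.2). Other mRNA fragments of 1 gene had 24.4% in f/f and 50.6% in null, or 35.1% and 54.2% without the 3 leading genes. With all reads, other mRNA had 24.4% in f/f (24.1 to 24.7) and 49.9% in null (49.7 to 50.1). The matrix share was thus above that of other mRNA in f/f with all reads and with reads of 1 gene. With reads of 1 gene it stayed above without the 3 leading genes. With all reads other mRNA still held these 3 genes, and the share without them was not taken. In null the matrix share was below other mRNA with all reads and above it with reads of 1 gene. With reads of 1 gene its interval included the share of other mRNA without the 3 leading genes. The null reads of 1 gene include the intronic Col1a2 spot, with 199 reads of 23 nt and 60 of 22 nt. The share without this spot was not taken. Reads of 36 nt, which come from pieces at least that long, were 6.05% of matrix reads of 1 gene in f/f (3.91 to 8.86) and 9.95% in null (9.05 to 10.9), and 2.90% and 7.55% of other mRNA. Shared matrix reads were shorter, with a median of 18 nt in f/f and 22 nt in null, against 23 and 24 nt for reads of 1 gene.

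**Figure D5:**
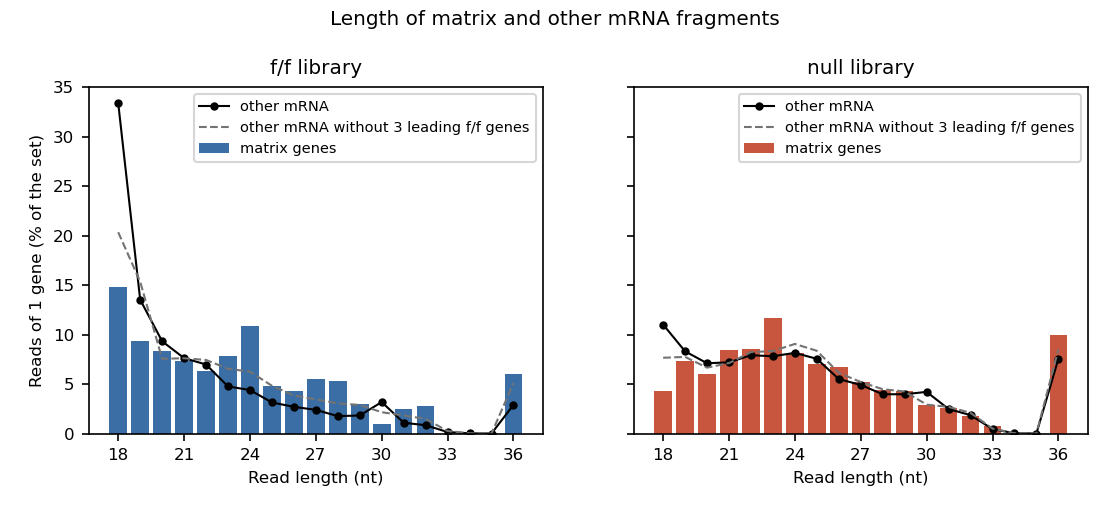
Read length in nt of mRNA fragments of 1 gene, as percent of each set, f/f on the left and null on the right; bars are the matrix genes, the solid line other mRNA and the dashed line other mRNA without the 3 leading f/f genes. In f/f the matrix bars are lower than both lines at 18 nt; the last point, 36 nt, holds all longer pieces.

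A further list held 77 matrix genes, of which 43 had at least 10 reads of their own. More than 2-fold higher per mRNA fragment were 27, 62.8% beside 54.5% of all genes, and lower were 2, 4.65% beside 7.27%. At the floor 22 were higher, 51.2% beside 40.1%. The median was 2.94, or 2.14 at the floor, beside 2.37 and 1.60 over all genes. Their sum of 209 f/f and 1727 null reads gave a ratio of 13.1 in CPM (11.3 to 15.1), whose interval overlaps that of the members. Genes that process collagen had 7 of 12 higher (58.3%) and further matrix proteins 8 of 14 (57.1%), both near the 54.5% of all genes. Receptors and remodelling enzymes had 12 of 17 (70.6%). At the floor these were 5, 6 and 11. P4ha1, the catalytic partner of P4hb, had 21 and 112 reads (ratio 8.43, 5.26 to 14.1). The collagen receptor gene Ddr2 had 11 and 133 (ratio 19.1, 10.3 to 39.2), and the integrin gene Itgav 9 and 100 (ratio 17.6, 8.89 to 39.5). The membrane metalloproteinase gene Mmp14 had 4 and 70 (ratio 27.7). P3h3 and Plod3, which hydroxylate proline and lysine, had 46 and 226 and 20 and 118 reads with shared ones, but 1 and 0 and 2 and 16 of their own. Tgfbi, an adhesion protein, had 643 f/f and 65 null reads in all, and 1 and 58 of its own. Efemp2, a fibulin, had 4 and 28 and Emilin1, an elastic fibre protein, 14 and 64.

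Markers of the labelled cell type were present in both libraries. Of 18 mesenchymal markers, 11 had an f/f read of their own and 14 a null read, 108 and 880 reads in all, a ratio of 12.9 (10.5 to 15.9). Of all 22015 protein-coding genes, 7322 had an f/f read of their own and 10304 a null read. The median ratio of the 10 mesenchymal markers with at least 10 reads was 16.6, or 13.1 at the floor. Over all genes it was 14.0, or 9.48 at the floor. Cxcl12, the chemokine of marrow stroma, had 41 and 429 reads and Vim, vimentin, 24 and 148. Acta2 went the other way with 11 and 4 (ratio 0.575, 0.133 to 1.94), an interval that includes no difference. Thy1, S100a4, Lepr and Tagln had no read of their own in either library. Of 12 haematopoietic markers, 0 had an f/f read and 2 a null read, with 0 and 13 reads. Of 10 endothelial markers 3 and 3 were seen (10 and 3 reads), of 10 epithelial markers 1 and 1 (5 and 8 reads), and of 10 muscle markers none. Of 10 osteoblast and chondrocyte markers 5 and 4 were seen, with 40 and 313 reads, mostly of Alpl. Of 10 adipocyte markers 4 and 4 were seen, with 169 and 464 reads, mostly of Cebpa, a transcription factor gene (157 and 441). The part of these in the matrix ratios was not tested.

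Seed matches for microRNAs in the 3′ UTRs of the members were counted, since microRNAs that Dicer makes bind such sites. The miR-29 family is known for targeting collagen mRNAs, and let-7 is named in the title of the study. Mature sequences are from RefSeq (GRCm38.p6), with the seed, bases 2 to 8, in capitals:
miR-29b-3p: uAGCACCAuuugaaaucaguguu
let-7a-5p: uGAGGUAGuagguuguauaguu
Reads of exactly these sequences numbered 11318 in f/f and 5 in null for miR-29b-3p, and 119776 and 83 for let-7a-5p. The miR-29 seed match TGGTGCT, on the transcript strand, was in 17 of 42 member 3′ UTRs (40.5%) and in 11.9% of all genes. Median 3′ UTR lengths were 1054 and 804 nt, and matches per kilobase were 0.486 and 0.108. The let-7 match CTACCTC was in 5 of 42 (11.9%), namely Col1a1, Col1a2, Col3a1, Col5a2 and Nid1, and in 8.05% of all genes. The median null to f/f ratio in CPM was taken with a library without a read held at the floor. Among members with at least 10 reads of their own it was 16.5 for 10 with a miR-29 match and 20.3 for 19 without. For let-7 the medians were 11.1 for 5 with a match and 21.5 for 24 without. Over all genes the medians, again at the floor, were 9.88 with and 9.48 without a miR-29 match. They were 10.3 with and 9.48 without a let-7 match. No test of these differences was made. A match is a description of the letters in these UTRs, and binding was not measured.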

How the data were processed

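The authors deposited, for each of 2 libraries, raw counts, 1 line per distinct sequence. The build named in the submitters' processing notes is mm9; trimming and alignment are not given in the sources used. Coordinates and gene names are from GENCODE M21 (GRCm38). Reads of at least 18 nt were matched in sense without mismatch to all transcripts; reads that fit a gene of any small RNA class, rRNA or a mitochondrial gene were left out. No genome was used, so introns were seen only where a transcript holds them. CPM is over all reads of a file. A read of several genes counted once in a sum and under each gene it matched. The main transcript of a gene was the coding one with the longest reading frame. Shares carry exact Clopper-Pearson intervals and ratios exact conditional intervals, both at 95%, covering counting error only. With no f/f read, a floor of 3 counts in the library gave a bound.

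The members, role groups and lists were chosen with earlier results of these data known. Named were all members, in full those with at least 100 reads in a library and the leading 2 of each role group, the 3 highest and 3 lowest ratios per mRNA fragment among members with at least 50 reads, the commonest coding fragments of the 8 members with most reads, and the 3 genes with most reads of each further list. The Col1a2 intronic spot, Tnc, Postn, the added fragments and the marker genes named were chosen after their values were seen. Groups came from the genotype label, and 1 library each allowed no test. Alternatives changed the denominator, length window, copies, sharing and members. Python 3.11.15 with numpy 2.4.6, scipy 1.17.1, pandas 2.3.3 and matplotlib 3.10.9 was used. On simulated reads for this comparison 400 of 400 matrix fragments were matched and 0 of 400 shuffled ones. The fragments were cut from member transcripts and searched in member transcripts only, so sharing with other genes was not checked.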

Additional observations from a re-analysis of the deposited data

How the results depend on the processing

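The null to f/f ratio of matrix fragments, 8.04 in CPM, stayed above 1 under all 13 alternatives, from 1.87 per snoRNA and snRNA read to 27.1 per read matched to any transcript. It was 12.5 with reads of 24 nt or more, 16.1 with reads of 1 gene, 1.99 with distinct sequences, 9.11 with sequences with at least 2 reads in a library and 11.8 without each member's commonest sequence. Settings added after seeing the data gave 11.03 without Fstl1, 14.6 without Fstl1, Lum and Loxl2, 3.74 with reads of 1 gene per snoRNA and snRNA read, and 18.3 with reads of 1 gene without each member's commonest sequence. The ratio of the matrix share of mRNA fragments, 1.37, was less firm: it was 0.951 without the 3 genes with most f/f reads, 1.05 with reads of 24 nt or more and 1.22 with distinct sequences, but 2.72 with reads of 1 gene and 2.01 without the commonest sequences. The added settings gave 1.88 without Fstl1, 2.50 without Fstl1, Lum and Loxl2, 1.74 with reads of 1 gene and the 3 genes left out, and 1.52 with distinct sequences of 1 gene. The cause of these shifts was not tested. Members more than 2-fold above the mRNA ratio, 20 of 33, became 32 of 33 on the CPM scale, beside 90.6% of all genes. With distinct sequences they were 11 of 30. Holding genes without a read in a library at the floor (added) gave 18 of 33, beside 23.9% of all genes. With reads of 1 gene it gave 20 of 31, beside 40.1%. Those more than 2-fold below, 4 of 33, became 8 of 42 with a minimum of 1 read and 1 of 23 with a minimum of 50. They were 0 of 33 on the CPM scale, beside 0.668% of all genes, and 2 of 30 with distinct sequences. For distinct sequences and the changed minimums the share over all genes was not taken, so these counts cannot be set against it. The share of fragments of at least 24 nt, 31.0% in f/f and 48.1% in null, was 46.1% and 53.7% with reads of 1 gene, 44.9% and 54.0% with distinct sequences, 25.4% and 45.8% without Loxl2, 48.0% and 54.0% without Fstl1 (added), and in null 44.04% with reads of 18 to 35 nt. At a limit of 30 nt it was 9.05% and 15.4%. No paired analysis was possible because each genotype had 1 library.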

Other observations

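Reads that matched only the opposite strand of a matrix transcript, and no transcript in sense, numbered 7 in f/f (7 sequences) and 35 in null (14 sequences), a ratio of 7.90 in CPM (3.46 to 21.1). Reads that fit a matrix gene but were left out because they also fit a small RNA gene numbered 108 in f/f and 160 in null, a ratio of 2.34 (1.82 to 3.02).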
